A study of Mus musculus with 24 samples.

Results

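The genes described here are the core of the TGF-beta pathway: the ligands Tgfb1, Tgfb2 and Tgfb3, the receptors Tgfbr1, Tgfbr2 and Tgfbr3, and the intracellular transducers Smad2, Smad3, Smad4 and Smad7. They were taken by gene symbol from the platform annotation, 1 probe set per gene, and all 10 were measured, among 19505 genes in all. The samples were whole lungs of mice killed at 6 months of age, hybridised to Affymetrix expression arrays. Wild-type mice given vehicle gave 6 arrays, wild-type mice given sildenafil 4, Marfan mice given vehicle 5 and Marfan mice given sildenafil 5. Sildenafil, an inhibitor of the phosphodiesterase that breaks down cyclic GMP, was supplied in drinking water, starting when the mice were 6 weeks old. The labels carry this treatment text on every sample, vehicle included, so the groups were taken from the sample titles, which separate vehicle from sildenafil. The sources used here give neither the Marfan allele nor the strain, the sex or the make-up of the vehicle. Y-linked genes averaged 2.62 to 3.15 (log2) on arrays 5, 8, 13, 14, 20 and 21, and 7.31 to 7.85 on the others. Every group holds arrays of both kinds, so both sexes appear to be present in each. A fit with this mean as a covariate is among the alternatives below. The labels plan 6 mice per group, and 4 further arrays (2 of wild-type sildenafil, 1 of Marfan sildenafil and 1 of Marfan vehicle lungs), whose titles say they did not pass quality control, hold no values. Nothing states beyond that plan that each array came from its own mouse, so the p-values reflect how these samples vary, which may be in part technical. Whole lung mixes cell types, so fewer cells of a type and less RNA per cell cannot be told apart.

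TGF-beta ligands are secreted in a latent form, bound through latent TGF-beta binding proteins to microfibrils of the matrix, and act only once released. The active ligand brings together Tgfbr2 and Tgfbr1, and Tgfbr1 phosphorylates Smad2 and Smad3, which enter the nucleus with Smad4. Smad7 is an inhibitory Smad that is itself induced by the pathway and turns the receptors off. Marfan syndrome is a disorder of these microfibrils, and TGF-beta signalling is one of the pathways most studied in its aorta and lung. Much of that control acts on release and phosphorylation, which a transcript array does not measure.

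Tgfb1, Tgfb2 and Tgfbr2 had a RefSeq promoter sequence and were among the genes higher at an unadjusted p under 0.05 with sildenafil in wild-type lungs. Their 250 bases before the transcription start (RefSeq, build GRCm38.p6, sense strand of the gene, 5′ to 3′) are therefore shown, with motif matches in capitals. The windows are chr7:25686752-25687001 on the plus strand for Tgfb1, chr1:186705990-186706239 on the minus strand for Tgfb2 and chr9:116175364-116175613 on the minus strand for Tgfbr2.
Tgfb1: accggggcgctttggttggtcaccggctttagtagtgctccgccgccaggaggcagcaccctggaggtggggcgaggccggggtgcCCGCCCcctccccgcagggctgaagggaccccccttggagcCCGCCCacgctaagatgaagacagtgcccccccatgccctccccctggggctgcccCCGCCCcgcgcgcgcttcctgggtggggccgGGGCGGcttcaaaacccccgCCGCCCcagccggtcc
Tgfb2: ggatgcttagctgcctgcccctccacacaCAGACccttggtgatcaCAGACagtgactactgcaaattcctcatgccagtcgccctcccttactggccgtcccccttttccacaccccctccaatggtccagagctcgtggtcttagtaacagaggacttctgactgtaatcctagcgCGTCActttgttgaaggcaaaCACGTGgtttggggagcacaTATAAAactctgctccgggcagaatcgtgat
Tgfbr2: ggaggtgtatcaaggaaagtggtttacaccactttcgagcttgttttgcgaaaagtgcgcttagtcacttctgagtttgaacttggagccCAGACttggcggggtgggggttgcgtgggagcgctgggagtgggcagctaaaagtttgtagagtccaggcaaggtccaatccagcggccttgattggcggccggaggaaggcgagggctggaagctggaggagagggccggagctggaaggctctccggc
The 6 motifs searched on both strands were the TATA box core TATAAA, the GC box GGGCGG, the cyclic AMP response element half-site TGACG, the E box CACGTG, the Smad half-site CAGAC and the Smad palindrome GTCTAGAC. No motif contains another, and no matches overlapped in these windows. The 3 promoters differed in make-up. The Tgfb1 window is 75.2% G and C, with 5 GC boxes and no TATA box core. The Tgfb2 window is 53.6% G and C, with a TATA box core from -31 to -26, an E box from -51 to -46, 1 cyclic AMP half-site on the opposite strand from -72 to -68 and 2 Smad half-sites. The Tgfbr2 window is 58.4% G and C and holds 1 Smad half-site, from -160 to -156. Of 32851 mouse promoter windows of this length, 32.7% hold a GC box, 12.4% the TATA box core, 17.8% a cyclic AMP half-site, 6.02% the E box, 42.2% a Smad half-site and 0.167% the palindrome. Smad3 has 2 GC boxes, and of the 2 windows listed for Tgfbr1 1 has 2 GC boxes and the other 1 Smad half-site. No promoter sequence was at hand for Tgfb3 or Tgfbr3, and those of Smad2, Smad4 and Smad7 were not searched. Tgfb3, also higher at that p with sildenafil in wild-type lungs, is therefore named only.

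Levels below are quantile-normalized log2 intensities, so a difference of 1 is a 2-fold change. All 10 genes were well above the background probe sets, whose medians were 2.77 to 2.95 on this scale, against a lowest value of 5.92 for any of the 10 genes on any array. Alveolar type 2 markers marked the tissue as lung, with a mean level of 11.2 to 11.6 on every array. Before normalization, array medians were 5.32 to 5.83 in wild-type vehicle lungs and 5.87 to 6.19 in wild-type sildenafil lungs, so every vehicle array was dimmer than every sildenafil array of that genotype. Marfan arrays ran from 5.80 to 6.13 with vehicle and from 5.73 to 6.45 with sildenafil. Marfan sildenafil array 9 stood apart. Its markers of macrophages other than resident alveolar ones averaged 9.58, against 6.02 to 7.37 on the other arrays, its cardiac muscle markers 5.55 against 8.08 to 8.97, and its endothelial markers 8.83 against 9.57 to 9.96. Results that rest on Marfan sildenafil lungs are therefore also given without it.

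**Figure D1:**
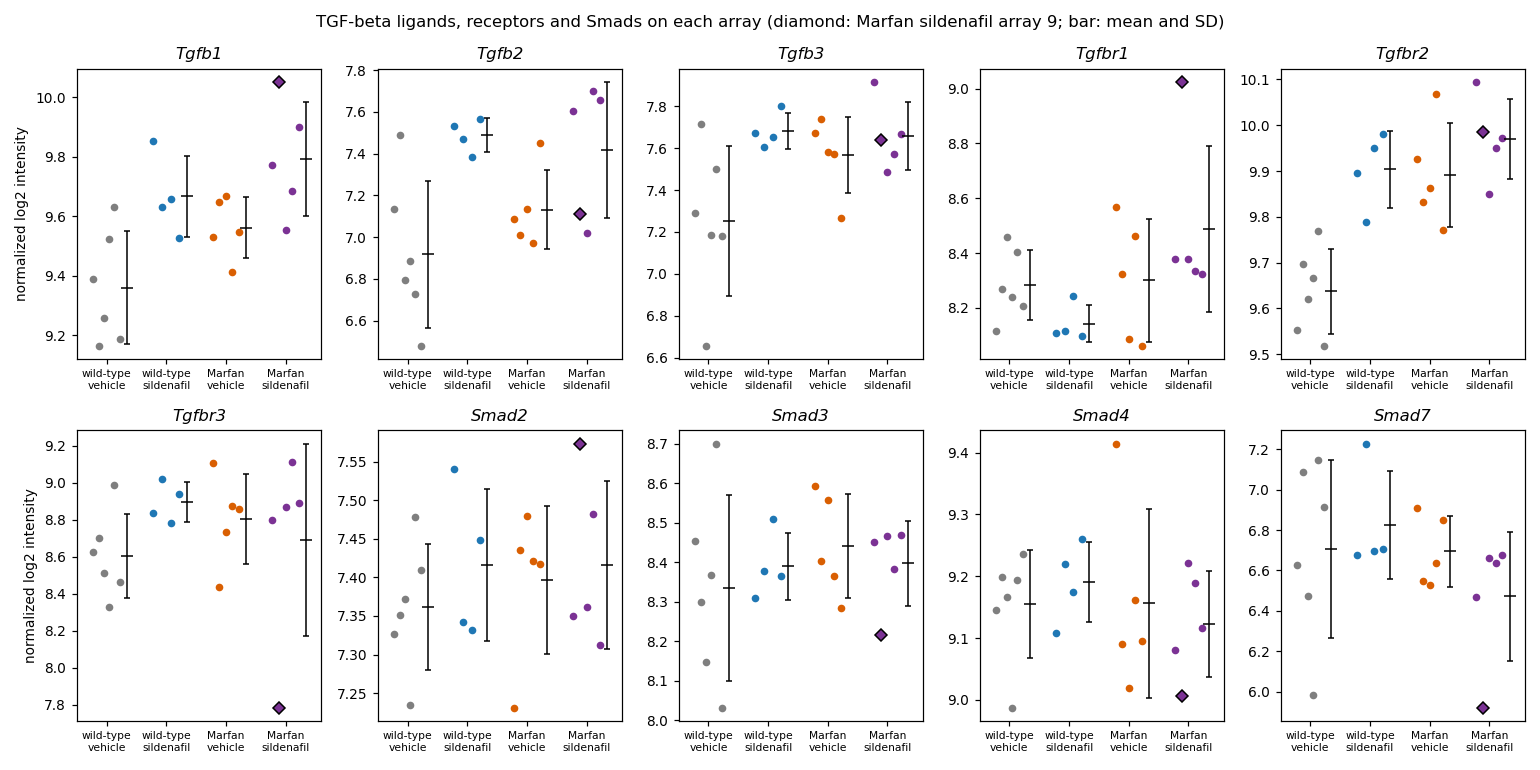
Normalized log2 intensity (y axis) of each of the 10 genes in the 4 groups (x axis), 1 point per array, with the mean and SD beside each group and array 9 drawn as a diamond. All genes but Tgfbr1, Smad4 and Smad7 have their lowest group mean in wild-type vehicle lungs. The group means of Smad2 and Smad4 lie within 0.05 and 0.07 of each other.

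Tgfb1, the most studied of the ligands in fibrosis and immune control, ran in wild-type vehicle lungs from 9.17 to 9.63 with a median of 9.32. The wild-type sildenafil arrays read 9.85, 9.63, 9.66 and 9.53, the Marfan vehicle arrays 9.53, 9.65, 9.67, 9.41 and 9.55, and the Marfan sildenafil arrays 9.77, 10.05 (array 9), 9.55, 9.68 and 9.90. Wild-type vehicle lungs thus held the lowest values, and each of the other groups overlapped them. The Tgfb1 mean was 0.31 ± 0.11 (SE) higher with sildenafil in wild-type lungs (1.24-fold, adjusted p = 0.415) and 0.23 ± 0.10 higher in Marfan lungs (adjusted p = 0.725). The second difference was 0.17 ± 0.10 without array 9. Between genotypes, Tgfb1 was 0.20 ± 0.10 higher in Marfan lungs under vehicle and 0.13 ± 0.11 higher under sildenafil (0.06 ± 0.11 without array 9), with adjusted p = 0.790 and 1.00 on all arrays.

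Tgfb2, a ligand of mesenchymal and epithelial cells, spread widely in wild-type vehicle lungs, from 6.48 to 7.49 with a median of 6.84. Its wild-type sildenafil arrays were tight and high, at 7.53, 7.47, 7.38 and 7.57. Marfan vehicle arrays read 7.09, 7.01, 7.13, 6.97 and 7.45. Marfan sildenafil arrays fell into a high set of 7.61, 7.70 and 7.66 and a low pair of 7.11 (array 9) and 7.02. In wild-type lungs 5 of the 6 vehicle arrays lay below every sildenafil array. This was the largest mean difference of any of the 10 genes, 0.57 ± 0.17 (1.49-fold, adjusted p = 0.361), and in Marfan lungs it was 0.29 ± 0.16 (adjusted p = 0.775; 0.36 ± 0.16 without array 9). Tgfb2 also followed array brightness. With group means subtracted, its level and the median of the deposited array had Pearson r = 0.70 (permutation p = 0.0051, adjusted p = 0.0509 over 10 genes) and Spearman rho = 0.70 (permutation p = 0.0057, adjusted p = 0.0571). Leaving out the 2 arrays farthest in brightness gave r = 0.57. With brightness as a covariate the wild-type sildenafil difference was 0.18 and the Marfan one 0.26, and the Marfan minus wild-type difference under vehicle went from 0.21 ± 0.15 to -0.15. In wild-type lungs brightness and treatment do not overlap, so the parts of the 2 cannot be told apart.

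Tgfb3, known for its part in lung and palate development, ran from 6.66 to 7.72 in wild-type vehicle lungs, with a median of 7.24. The wild-type sildenafil arrays read 7.67, 7.60, 7.65 and 7.80, the Marfan vehicle arrays 7.67, 7.74, 7.58, 7.57 and 7.26, and the Marfan sildenafil arrays 7.92, 7.64 (array 9), 7.49, 7.57 and 7.67. All 3 groups other than wild-type vehicle had means between 7.57 and 7.68, against 7.25 ± 0.36 (SD, n = 6) there. Tgfb3 was 0.43 ± 0.15 higher with sildenafil in wild-type lungs (adjusted p = 0.403) and 0.31 ± 0.14 higher in Marfan than in wild-type lungs under vehicle (adjusted p = 0.789). Sildenafil in Marfan lungs gave 0.09 ± 0.14 (0.10 ± 0.15 without array 9), and with brightness as a covariate the first 2 differences were 0.38 and 0.27.

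**Figure D2:**
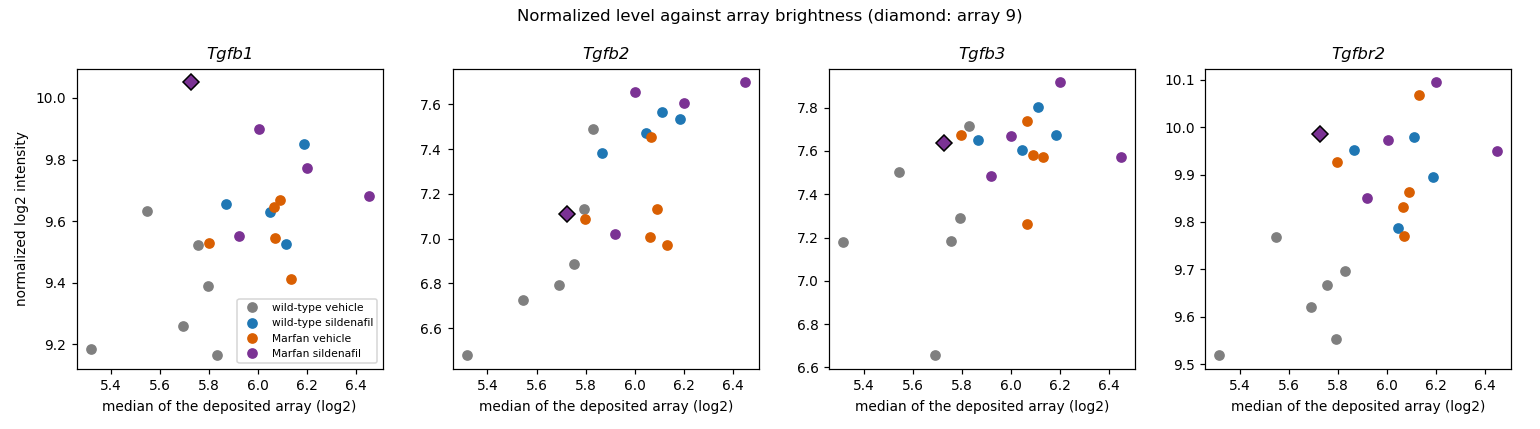
Normalized log2 intensity of Tgfb1, Tgfb2, Tgfb3 and Tgfbr2 (y axis) against the median of the deposited array, a measure of its brightness (x axis, log2), 1 point per array coloured by group, array 9 as a diamond. Wild-type vehicle arrays lie to the left of all wild-type sildenafil arrays, and Tgfb2 climbs with brightness within groups (r = 0.70).

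Tgfbr2, the receptor that binds active ligand first, had small spread, with a within-group SD of 0.10 that put it at percentile 0.795 of all genes. Wild-type vehicle arrays lay between 9.52 and 9.77 with a median of 9.64. The wild-type sildenafil arrays read 9.90, 9.79, 9.95 and 9.98, the Marfan vehicle arrays 9.93, 9.83, 9.86, 10.07 and 9.77, and the Marfan sildenafil arrays 10.09, 9.99 (array 9), 9.85, 9.95 and 9.97. Wild-type vehicle lungs lay below every array of the other groups, though the lowest Marfan vehicle array equals the highest wild-type vehicle array to 2 decimals. Tgfbr2 was 0.27 ± 0.08 higher with sildenafil in wild-type lungs (1.20-fold, adjusted p = 0.366) and 0.25 ± 0.08 higher in Marfan than wild-type lungs under vehicle (1.19-fold, adjusted p = 0.776), the 66th smallest p of all genes in that comparison. With brightness as a covariate these were 0.24 and 0.23, with median centring 0.15 and 0.12. Centring moved the median of all genes by -0.12 and -0.13 in these comparisons, and relative to that median the Tgfbr2 differences were 0.27 and 0.24. The remaining differences of Tgfbr2 were 0.08 ± 0.08 for sildenafil in Marfan lungs and 0.07 ± 0.08 between genotypes under sildenafil (0.08 ± 0.08 and 0.06 ± 0.09 without array 9).

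Tgfbr1, the kinase receptor that phosphorylates Smad2 and Smad3, took its extremes in other groups. Wild-type vehicle arrays ran from 8.12 to 8.46 with a median of 8.25. Wild-type sildenafil arrays read 8.11, 8.12, 8.24 and 8.10, Marfan vehicle arrays 8.57, 8.32, 8.09, 8.46 and 8.06, and Marfan sildenafil arrays 8.38, 9.03 (array 9), 8.38, 8.33 and 8.33. All Marfan sildenafil arrays were above all wild-type sildenafil arrays, by 0.35 ± 0.13 on average (1.27-fold, adjusted p = 1.00). Array 9 alone supplied much of that: without it the difference was 0.21 ± 0.11, and sildenafil in Marfan lungs went from 0.19 ± 0.13 to 0.05 ± 0.10. In wild-type lungs Tgfbr1 was lower on average with sildenafil (-0.14 ± 0.13, adjusted p = 0.798), a sign that turned to 0.07 with brightness as a covariate and to 0.20 in the deposited values, where the median of all genes was 0.279. Between genotypes under vehicle the difference was 0.02 ± 0.12, and 0.22 with brightness as a covariate.

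Tgfbr3, the co-receptor betaglycan that presents ligand and is needed most for Tgfb2, was the most variable receptor. Wild-type vehicle arrays ran from 8.33 to 8.99 with a median of 8.57. Wild-type sildenafil arrays read 8.84, 9.02, 8.78 and 8.94, Marfan vehicle arrays 9.11, 8.44, 8.73, 8.88 and 8.86, and Marfan sildenafil arrays 8.80, 7.78 (array 9), 8.87, 9.11 and 8.89. Array 9 was the lowest of all 20, and the groups overlapped otherwise. Sildenafil in wild-type lungs gave 0.29 ± 0.18 (adjusted p = 0.654), which was 0.05 with brightness as a covariate. In Marfan lungs it gave -0.11 ± 0.18, and 0.11 ± 0.12 without array 9. Marfan against wild-type lungs gave 0.20 ± 0.17 under vehicle and -0.20 ± 0.19 under sildenafil, the latter 0.02 ± 0.13 without array 9 and the former -0.03 with brightness as a covariate. The lowest adjusted p of Tgfbr3 in the 4 comparisons of 2 groups was this 0.654.

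Smad2 and Smad4, the receptor-activated and the common Smad, were among the steadiest transcripts on the arrays. Smad2 ranged from 7.23 to 7.57 and its group means from 7.36 to 7.42. Smad4 ranged from 8.99 to 9.41 and its group means from 9.12 to 9.19. Their within-group SDs, both 0.10, lay at percentiles 0.790 and 1.38 of all genes, where the median SD was 0.26. The 95% intervals of their differences therefore stayed narrow: from -0.14 to 0.25 for Smad2 and from -0.14 to 0.21 for Smad4 with sildenafil in wild-type lungs, and from -0.15 to 0.22 and from -0.16 to 0.17 between genotypes under vehicle. Smad3, the other receptor-activated Smad, ranged from 8.03 to 8.70, with both ends in wild-type vehicle lungs, and had group means from 8.33 to 8.44. Its largest difference between 2 groups was 0.11 ± 0.10, Marfan minus wild-type under vehicle (adjusted p = 0.881).

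Smad7, the feedback inhibitor, varied most within groups, with a within-group SD of 0.33 at percentile 74.5. Wild-type vehicle arrays ran from 5.99 to 7.15 with a median of 6.77. Wild-type sildenafil arrays read 6.67, 7.23, 6.70 and 6.71, Marfan vehicle arrays 6.91, 6.55, 6.53, 6.64 and 6.85, and Marfan sildenafil arrays 6.47, 5.92 (array 9), 6.66, 6.64 and 6.68. Marfan sildenafil arrays were the low group, and overlapped every other group. Their mean was 0.35 ± 0.20 below wild-type sildenafil lungs (a difference of -0.35, adjusted p = 1.00), or -0.22 ± 0.19 without array 9, and differed from Marfan vehicle lungs by -0.22 ± 0.19, or -0.08 ± 0.18 without array 9.

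**Figure D3:**
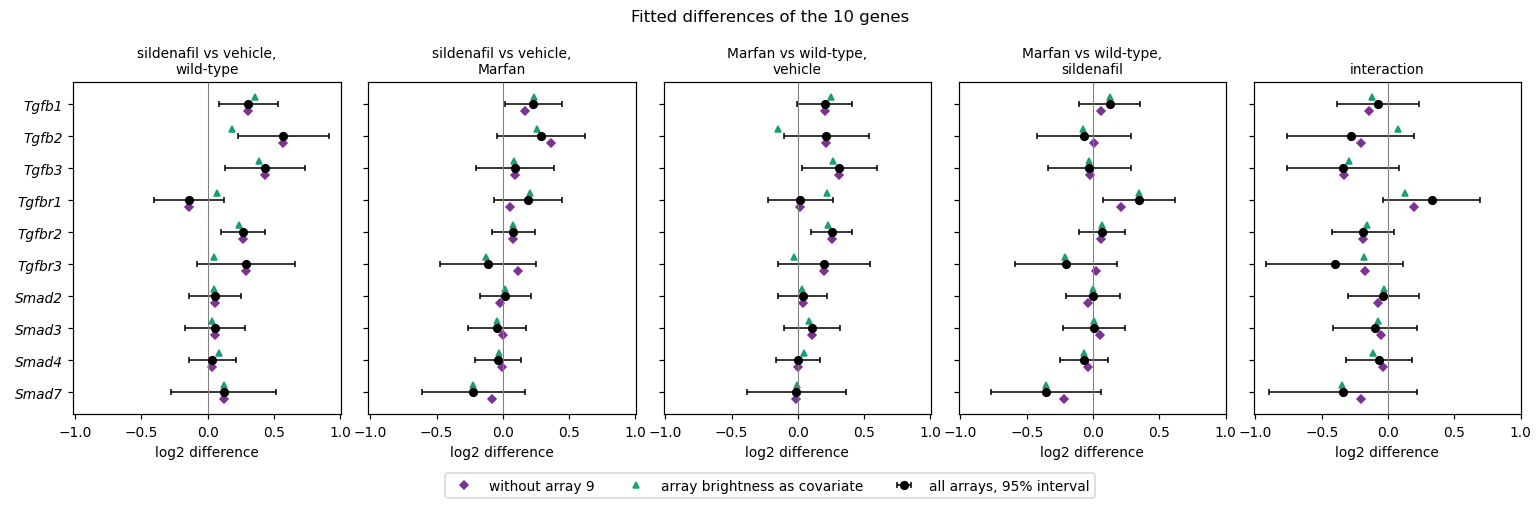
Fitted log2 differences (x axis) of the 10 genes (y axis) in the 4 comparisons of 2 groups and the interaction: black points with 95% intervals from all 20 arrays, diamonds without array 9, triangles with array brightness as a covariate. Tgfb1, Tgfb2, Tgfb3 and Tgfbr2 have intervals above 0 for sildenafil in wild-type lungs, and the Tgfb2 triangle there moves from 0.57 to 0.18.

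Sildenafil in wild-type lungs came with higher means for 9 of 10 genes, with Tgfbr1 the exception, and the median difference was 0.19 against -0.002 over all genes. With median centring, which moved the median of all genes to -0.12, 7 of 10 were higher, Smad3 and Smad4 being the others that turned. None passed an adjusted p under 0.05, nor did any of the 19505 genes (0%). At an unadjusted p under 0.05, the 3 ligands and Tgfbr2 were higher, 4 of 10, against 4.65% of all genes higher, and 0 were lower, against 4.45%. Groups did not overlap for 1 of 10, Tgfbr2, which was higher, against 1.42% of all genes higher without overlap. The count of 4 was 2 with median centring and 2 with brightness as a covariate. For counts under other settings, here and below, the share of all genes at an unadjusted p under 0.05 is not given. This includes counts with an array left out. Changes in these counts are therefore not a result about the 10 genes. In the same comparison the 6 platelet markers averaged 6.65 to 8.26 per array with vehicle and 7.71 to 8.65 with sildenafil, the 13 endothelial markers 9.57 to 9.79 and 9.87 to 9.93, and the 6 pericyte markers 6.21 to 6.40 and 6.50 to 6.66. The 7 airway markers went the other way, at 10.42 to 10.73 and 10.04 to 10.53. Of these, 5 were lower on average (median -0.26) and 3 lower at an unadjusted p under 0.05. All of these markers were above background in both groups, and their part in the result was not tested.

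Sildenafil in Marfan lungs gave a less uniform picture: 6 of 10 means were higher, with a median difference of 0.05 against -0.007 over all genes. No gene of the 10 or of all genes (0%) passed the adjusted threshold. Tgfb1 alone was at an unadjusted p under 0.05, 1 of 10 against 3.29% of all genes higher and 3.41% lower. Without array 9 the 1 gene at that p was Tgfb2 (0.36 ± 0.16) and not Tgfb1 (0.17 ± 0.10). The count was 0 without any 1 of arrays 12, 20 and 23, and 2 without array 10. No gene of the 10 was higher without overlap, against 0.385% of all genes. Averaged over both genotypes, sildenafil lungs had more Tgfb1 (0.27 ± 0.07, adjusted p = 0.168), Tgfb2 (0.43 ± 0.12, adjusted p = 0.166), Tgfb3 (0.26 ± 0.10, adjusted p = 0.341) and Tgfbr2 (0.17 ± 0.06, adjusted p = 0.237) on average, and these 4 were at an unadjusted p under 0.05, against 5.17% of all genes higher and 5.73% lower. Only 2 of 10 were with brightness as a covariate, and Tgfb2 was then at 0.22. The adjusted threshold was passed by none of the 10 and 0% of all genes. Tgfb1 was at 0.24 ± 0.07, Tgfb3 at 0.26 ± 0.10 and Tgfbr2 at 0.17 ± 0.06 without array 9. Without array 9 Tgfb2 reached 0.47 ± 0.11 with adjusted p = 0.058, the lowest of any of the 10 genes in any setting, and over the alternatives that p ran from 0.058 to 0.595, the highest being with brightness as a covariate.

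Marfan against wild-type lungs under vehicle gave 9 of 10 means higher, all but Smad7, with a median difference of 0.15 against -0.005 over all genes. With median centring, which moved the median of all genes to -0.13, 6 were higher, and with brightness as a covariate 7. Again 0 of 10 and 0% of all genes passed the adjusted threshold. Tgfb3 and Tgfbr2 were higher at an unadjusted p under 0.05, 2 of 10 against 3.48% of all genes, and 0 were lower against 2.78%. Tgfbr2 was the 1 gene without overlap, and was higher, against 0.261% of all genes higher without overlap. Its groups did overlap in the deposited values, where Marfan vehicle array 20 was at 9.66 and wild-type vehicle array 14 at 9.77. The count of 2 was 1 without any 1 of arrays 15, 18, 20, 21 or 22, 1 with brightness as a covariate, 0 with median centring, and 3 without any 1 of arrays 9, 10, 14 or 17. This comparison shares the wild-type vehicle arrays with that of sildenafil in wild-type lungs, so the same 6 arrays enter both. The 7 mesothelial markers averaged 6.74 to 7.32 per array in wild-type and 7.06 to 7.75 in Marfan vehicle lungs, with a median difference of 0.35 and 3 of 7 higher at an unadjusted p under 0.05. All 6 neutrophil markers were lower on average (median -0.34, 7.54 to 9.07 per array in wild-type and 7.31 to 8.35 in Marfan lungs). The part of these cell types in the result was not tested.

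Marfan against wild-type lungs under sildenafil gave 5 means higher and 5 lower, with a median of -0.01 against -0.005 over all genes. Tgfbr1, which was higher, was the only one at an unadjusted p under 0.05 and the only one without overlap. That is 1 of 10 against 1.87% higher and 2.03% lower, and 0.677% higher without overlap, of all genes. It was 0 of 10 at that p without array 9. The adjusted threshold was passed by 0 of 10 and 0% of all genes. Averaged over treatments, Marfan lungs held more Tgfb1 (0.16 ± 0.07) and Tgfbr2 (0.16 ± 0.06) on average, both with adjusted p = 0.918, and 2 of 10 were at an unadjusted p under 0.05, against 2.8% of all genes higher and 2.55% lower, with 0% past the adjusted threshold. Leaving out 1 array gave counts of 1 to 3 (1 without array 4, 6, 9, 14, 18 or 21, and 3 without array 8, 10, 11, 16, 17 or 24). Tgfb1 was at 0.13 ± 0.07 and Tgfbr2 at 0.16 ± 0.06 without array 9.

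The interaction asks whether sildenafil acted differently in the 2 genotypes. It was negative for 9 of 10 genes, with a median of -0.14 against -0.003 over all genes. A negative value means that the Marfan difference, with its sign, was the lower one, not that it was smaller in size. For Smad7 the sildenafil difference was 0.12 in wild-type and -0.22 in Marfan lungs. With median centring, which moved the median of all genes to 0.13, the interaction was negative for 5 of 10 genes, and with brightness as a covariate for 8. The widest were Tgfbr3 (-0.40 ± 0.25), Smad7 (-0.34 ± 0.27), Tgfb3 (-0.34 ± 0.20) and, as the positive one, Tgfbr1 (0.33 ± 0.18). Without array 9 these were -0.18 ± 0.17, -0.20 ± 0.25, -0.33 ± 0.21 and 0.19 ± 0.15. Fitted with brightness as a covariate, Tgfbr3 was at -0.18, Tgfbr1 at 0.13 and Tgfb2 at 0.08, from -0.28 ± 0.23. None of the 10 passed an adjusted p under 0.05 (0% of all genes), with adjusted p = 0.984 for each of those 4, and 0 were at an unadjusted p under 0.05, against 1.96% of all genes higher and 2.51% lower. Leaving out array 14 or array 20 gave 1. A higher sildenafil difference in wild-type than in Marfan lungs is therefore not shown for any of the 10. The intervals remain wide: from -0.76 to 0.19 for Tgfb2, from -0.42 to 0.05 for Tgfbr2 and from -0.39 to 0.23 for Tgfb1.

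Other genes of the pathway were read as 5 lists, and no gene of them passed the adjusted threshold in any comparison. Counts of higher or lower genes in the lists are at an unadjusted p under 0.05 unless given as averages. The shares of all genes at that p given above belong to the fit on all arrays without a covariate. For counts without array 9 or with brightness as a covariate, that share is not given here. Of 13 genes that store or release latent ligand, 12 were higher on average with sildenafil in wild-type lungs (median 0.20), and 5 of them were at an unadjusted p under 0.05, with 0 lower. They were led by Ltbp4 (0.71 ± 0.21) and Ltbp3 (0.50 ± 0.16), binding proteins that tether latent TGF-beta, and Thbs1 (0.90 ± 0.30), thrombospondin, a platelet and matrix protein that can release it. With brightness as a covariate Ltbp4 was at 0.39, Ltbp3 at 0.46 and Thbs1 at 0.73, and 3 of 13 were at that p. In Marfan lungs sildenafil gave 11 of 13 higher on average, 2 of them (Thbs1, 0.61 ± 0.29, and Furin, the protease that cuts the ligand precursors, 0.40 ± 0.19) at an unadjusted p under 0.05. Without array 9 these were 8 of 13 and 1, with Thbs1 at 0.64 ± 0.29 and Furin at 0.20 ± 0.16. Under vehicle, Marfan lungs had more Ltbp3 (0.45 ± 0.15), Ltbp4 (0.44 ± 0.20) and Ltbp1 (0.31 ± 0.15) on average, the 3 of 13 at an unadjusted p under 0.05, of which Ltbp4 was at 0.13 with brightness as a covariate. Under sildenafil 0 of 13 were. Ltbp3 and Ltbp4 were the 2 of 13 in the interaction (-0.53 ± 0.22 and -0.63 ± 0.29), and without array 9 they were at -0.59 ± 0.22 and -0.45 ± 0.25, 1 of 13 at that p. Fitted with brightness, Ltbp4 was at -0.33 there, and 0 of 13 were at that p.

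Among 11 receptors of the wider family, 0 were at an unadjusted p under 0.05 with sildenafil in wild-type lungs or between genotypes under vehicle. Without array 9, which is in neither comparison but enters the shared estimate of spread, 3 and 1 were higher. Bambi, a decoy receptor without a kinase, was lower with sildenafil in Marfan lungs (-0.51 ± 0.17, adjusted p = 0.690), the 1 of 11, and -0.34 ± 0.15 without array 9. Bambi (-0.47 ± 0.18) and endoglin, Eng (-0.53 ± 0.21), the endothelial co-receptor, were the 2 of 11 lower in Marfan than wild-type sildenafil lungs. Without array 9 Bambi was at -0.30 ± 0.15 and Eng at -0.24 ± 0.11, and 1 of 11 was lower. In that comparison 12 of the 13 endothelial markers were also lower on average, with a median of -0.30 and array 9 the lowest, and their part in the result was not tested. Of 22 other Smads and regulators, sildenafil in wild-type lungs had 2 higher, Tab2 and the Smad repressor Ski (0.34 ± 0.15), and 2 lower, 1 of them the deubiquitinase Usp15 (-0.25 ± 0.10). Ski was also higher in Marfan vehicle lungs (0.37 ± 0.14), with Rnf111 (0.34 ± 0.14), the ligase that degrades Ski-family repressors, and Strap lower (-0.25 ± 0.10), the 2 higher and 1 lower of 22 at an unadjusted p under 0.05. With brightness as a covariate Usp15 was at -0.12 in the first comparison and Strap at -0.07 in the second, and 0 were lower in either. Smad6, the other inhibitory Smad, was lower in Marfan than wild-type sildenafil lungs (-0.56 ± 0.23), 1 of 2 lower with Zfyve9. Without array 9 they were at -0.25 ± 0.14 and -0.30 ± 0.16 and neither was at that p. Among 7 matrix and secreted proteins that bind these ligands, Bgn (0.41 ± 0.13) and Fmod (0.55 ± 0.26), biglycan and fibromodulin, were the 2 higher with sildenafil in wild-type lungs, and Fmod (0.61 ± 0.24) the 1 higher in Marfan vehicle lungs. With brightness as a covariate Bgn was at 0.09 and 0 of 7 were higher in either comparison.

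Transcripts known as targets of the pathway, 30 measured, went to both sides in every comparison, though more were higher than lower on average. With sildenafil in wild-type lungs 22 of 30 were higher on average (median 0.12), 4 higher at an unadjusted p under 0.05, among them Pdgfb (0.59 ± 0.17) and Il11 (0.60 ± 0.23), and 1 lower, Angptl4 (-0.62 ± 0.18). These counts were 6 and 1 without array 9, and 4 and 2 with brightness as a covariate. With sildenafil in Marfan lungs 24 of 30 were higher on average, 1 of them, the matrix protein tenascin C, Tnc (0.76 ± 0.27), at that p, with Sphk1 lower (-0.34 ± 0.14). Without array 9 Tnc was at 0.69 ± 0.28 and Sphk1 at -0.42 ± 0.14, with 4 higher and 1 lower. Marfan against wild-type lungs under vehicle had 4 higher, among them fibronectin, Fn1 (0.62 ± 0.21), and the collagen gene Col3a1 (0.41 ± 0.17), and 0 lower. Without array 9 they were 4 and 1, and with brightness as a covariate 5 and 2, with Fn1 at 1.01. Under sildenafil 6 of 30 were higher, led by Tnc (1.13 ± 0.29), Col3a1 (0.61 ± 0.19) and the protease inhibitor Timp1 (1.14 ± 0.43), and 0 lower, with adjusted p = 1.00 for each. Without array 9, 5 were higher, and Tnc was at 1.06 ± 0.29, Col3a1 at 0.55 ± 0.19 and Timp1 at 0.61 ± 0.29. Averaged over both genotypes, sildenafil lungs had 25 of 30 higher on average, with 7 higher and 2 lower at that p. Averaged over treatments, Marfan lungs had 20 of 30 higher on average, with 6 higher and 0 lower at that p. They were led by Tnc (0.81 ± 0.19), Col3a1 (0.51 ± 0.13) and Fn1 (0.60 ± 0.16). These 3 were at 0.78 ± 0.19, 0.48 ± 0.12 and 0.46 ± 0.11 without array 9. With brightness as a covariate they were at 0.84, 0.56 and 0.80. Without array 9 the counts were 10 and 3 for sildenafil, and 7 and 1 for genotype.

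**Figure D4:**
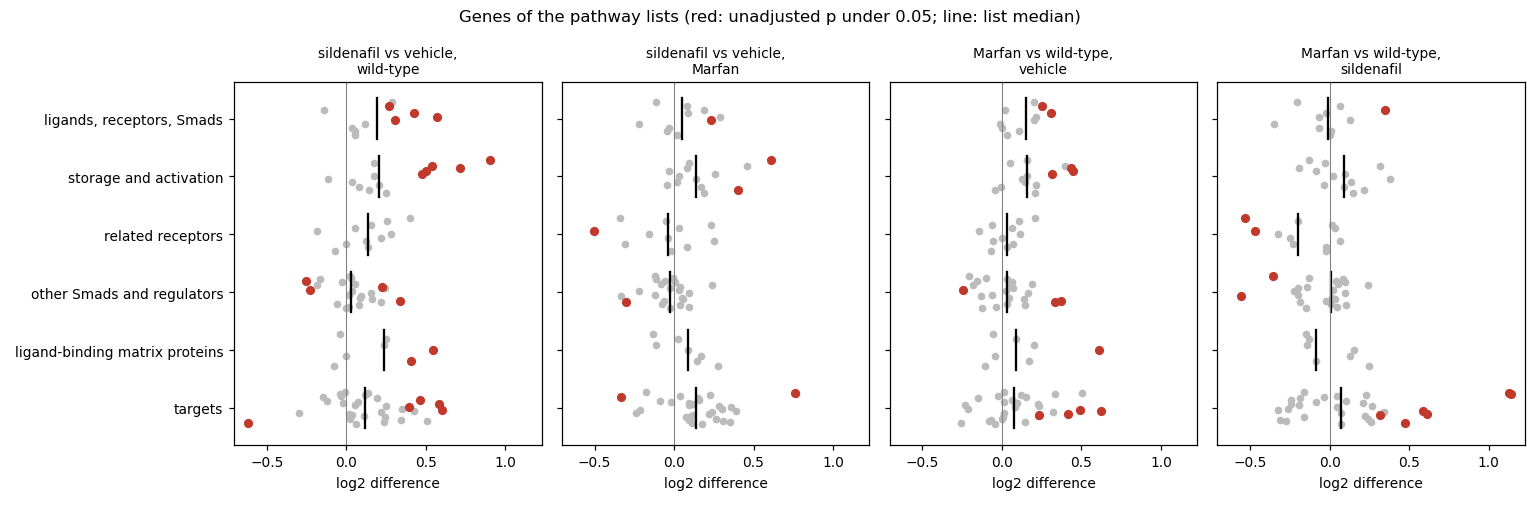
Log2 differences (x axis) of every measured gene of the 6 pathway lists (y axis) in the 4 comparisons of 2 groups, 1 point per gene, red at an unadjusted p under 0.05, with a line at the list median. With sildenafil in wild-type lungs 12 of 13 storage and activation genes lie above 0, while the targets spread to both sides.

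Within groups, Smad7 followed Tgfbr3 and Smad4 from array to array. With each group's mean subtracted, 45 pairs of the 10 genes were correlated over the 20 arrays (100000 permutations within groups), 29 had a positive Pearson r, and 2 had an adjusted p under 0.05 by Pearson and 3 by Spearman. Tgfbr3 and Smad7 had Pearson r = 0.75 (permutation adjusted p = 0.0027) and Spearman rho = 0.76 (permutation adjusted p = 0.006), r = 0.64 without the 2 arrays farthest in Tgfbr3 and 0.70 without array 9. Smad4 and Smad7 had r = 0.65 (permutation adjusted p = 0.0097) and rho = 0.72 (permutation adjusted p = 0.008), r = 0.59 without the 2 farthest and 0.61 without array 9. Tgfb1 and Smad4 ran in opposite directions (r = -0.57, permutation adjusted p = 0.0582; rho = -0.72, permutation adjusted p = 0.0081), with r = -0.50 without the 2 farthest arrays and -0.51 without array 9. The negative pair of Tgfbr1 and Tgfbr3 (r = -0.48) rests on array 9, without which r was 0.27. All pairs share the arrays and their normalization.

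**Figure D5:**
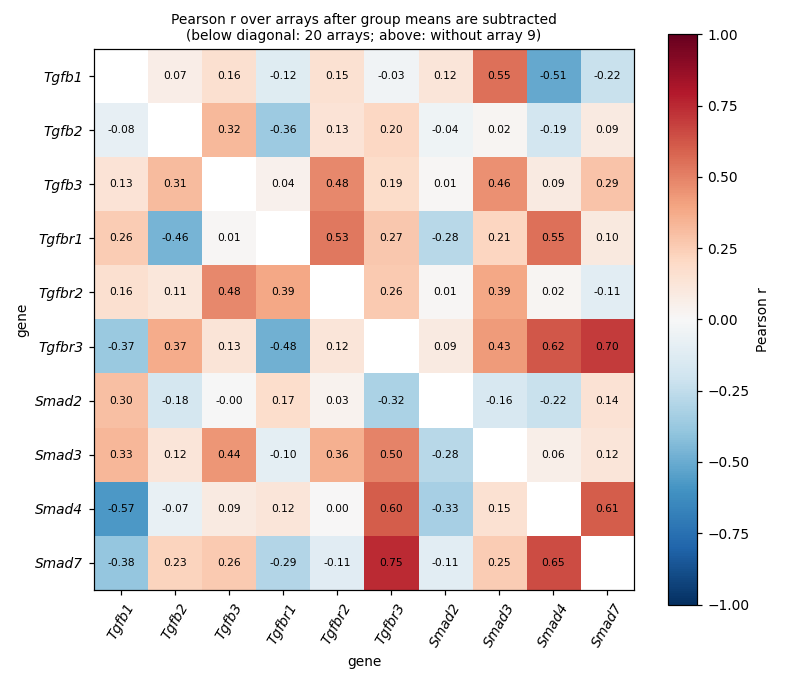
Pearson r between each pair of the 10 genes over arrays after group means are subtracted (colour scale from -1 to 1), all 20 arrays below the diagonal and without array 9 above it. Tgfbr3, Smad4 and Smad7 form the reddest block, and the Tgfbr1 with Tgfbr3 cell goes from -0.48 to 0.27.

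The genes with the most similar pattern within groups, by Pearson r among 9568 brighter genes, were different genes for each of the 10. Each group's mean was subtracted over the 20 arrays, so these r do not reflect the differences between groups. For the ligands they were Stat5a for Tgfb1 (r = 0.79), Slc1a4, Cd81 and Ehd2 for Tgfb2 (0.85, 0.85 and 0.84) and Serac1 for Tgfb3 (0.81). For the receptors they were Mgat4a for Tgfbr1 (0.90, and 0.77 without array 9), Dnmt1 for Tgfbr2 (0.81) and Cavin2, Myh7 and Clic5 for Tgfbr3 (each 0.96, and 0.92, 0.91 and 0.89 without array 9). For the Smads they were Lrpap1 for Smad2 (0.80), Pak4 for Smad3 (0.88), Kmt5b for Smad4 (0.87) and Dennd5a for Smad7 (0.84). These are descriptions over arrays that share brightness and array 9.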

How the data were processed

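Per the labels, 700 pg of lung RNA (integrity number over 8.5) per sample was labelled with the Affymetrix Pico reagents. The authors made the deposited log2 values with Affymetrix Expression Console and RMA, per the submitters' processing notes, whose versions and genome build the sources used here do not give. Of 24 sample columns, 4 hold no values and were not used. Of 22206 transcript probe sets, 19572 have 1 gene symbol, 2634 have none and 0 several; each gene kept its probe set with the highest mean. Deposited array medians differed, for a reason the sources used here do not give, so values were quantile-normalized over 20 arrays. The 4 groups were fitted together in limma 3.58.1 under R 4.3.3 (lmFit, eBayes with a trend, 16 residual degrees of freedom), and p-values, two-sided, were adjusted by Benjamini-Hochberg over 19505 genes, with a threshold of 0.05. The script was tested on simulated data. Each difference is first group minus second, ± its SE. The 10 genes, the pathway lists and the markers were chosen with earlier results of these data known. Genes named from a list were those with up to the 3 smallest p under 0.05 per comparison, and beside each of the 10 genes up to 3 with the highest r. Tab2 and Zfyve9 follow that rule. The number of arrays limits the precision. Alternatives were deposited values, median centring, array brightness or Y-linked genes as covariate, array weights, only the groups compared, the brighter genes, the mean of probe sets and each array left out.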

Additional observations from a re-analysis of the deposited data

Results flagged for a closer look

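Of 40 sets of values (10 genes in 4 groups), 7 held an array far from the rest of its group, where chance gives about 1 in 20. Array 9 of the Marfan sildenafil group accounts for 3 of them: Tgfbr1 was highest there at 9.03, with the next array at 8.38, Tgfbr3 lowest at 7.78, with the next at 8.80, and Smad7 lowest at 5.92, with the next at 6.47. In wild-type sildenafil lungs, array 5 had the highest Tgfbr1, at 8.24, and array 4 the highest Smad7, at 7.23. Smad2 was lowest on Marfan vehicle array 20, at 7.23, and Smad4 on wild-type vehicle array 16, at 8.99; both genes have so little spread that the gaps to the nearest array, at 7.42 and 9.15, are small.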

How the results depend on the processing

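Under 8 alternatives and with each of 20 arrays left out, 0 of the 10 genes passed the adjusted threshold in any comparison. On the deposited values, without the quantile normalization applied here, the median difference of the 10 genes moved to 0.418 (Marfan against wild-type, vehicle), 0.521 (sildenafil, wild-type), -0.381 (interaction), 0.222 (genotype averaged) and 0.270 (sildenafil averaged), while the median of all genes moved to 0.247, 0.279, -0.237, 0.125 and 0.156. Unadjusted counts then were 7 for the first, 9 for the second and 3 for the interaction. The share of all genes at that p is not given for this setting, and the median of all genes moved in the same direction. These counts are therefore not a result about the 10 genes. Of 1930 values for single genes, 47 moved by more than the spread within groups and 103 had the other sign, Smad2, Smad3 and Smad4 among them with differences near 0. Many of the 1930 could not move, so these counts do not measure robustness. The mean of probe sets (each of the 10 genes has 1), the brighter genes and only the groups compared leave every difference as it was. So does leaving out an array of a group not compared. Over all genes, calls appeared for sildenafil averaged without array 9 (74), with array weights (68), without array 10 (25), among brighter genes (10), on deposited values (3) and without array 24 (1); the cause was not tested. For genotype they were at most 5. No paired analysis was possible because the running numbers of the arrays are not shared between groups.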
